A study of Mus musculus with 44 samples.

Results

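TRAIL (Tnfsf10), its death receptor, the decoy receptors and the neighboring receptor gene Tnfrsf26 are described here in fibroblasts sorted from mouse mammary glands and mammary tumors. The 6 genes, out of 55486 in the table of counts, were chosen by name, and the choice was made with their levels per mouse and CD26 class already in view, so those levels are given as a description without a test. All 44 libraries of 13 mice were used, and all 6 genes passed the filter on low counts. All recipients were En1-Cre;mTmG females, in which GFP marks cells whose ancestors expressed En1 and tdTomato marks the other host cells. Donor mammary tissue was placed at the fourth mammary gland of recipients whose fat pads had not been cleared of their own epithelium. The cells studied were sorted as negative for EpCAM, CD49f, CD31 and CD45, by which the paper defines fibroblasts here. Whether the sort also required tdTomato or GFP is not given in the sources used here. GFP-negative cells may therefore include donor cells that lack these markers. The age of the mice at sampling is not given in the sources used here. Control recipients (labelled wildtype) received WapCre-negative tissue, for which the paper names Cdh1F/F;PtenF/F donors, and gave normal fibroblasts (NFs) from 3 mice. Each control label holds a pair of animal numbers, may stand for a pool of 2 animals and was counted as 1 mouse. WB1P recipients carried tumors from WapCre;Brca1F/F;Trp53F/F tissue and gave cancer-associated fibroblasts (CAFs) from 5 mice. WB1P-Myc donors carried in addition the Cre-dependent transgene Col1a1-invCAG-Myc-IRES-Luc, and their CAFs came from 5 mice, of which 2 are labelled 8x8, the tumor size in mm. The paper describes all these tumors as end-stage and counts fewer WB1P-Myc mice than the labels. WB1P mice carry no size label, and tumor stage may differ between the models. WapCre acts in the mammary epithelium of the donor, so fibroblasts that come from the host carry none of the tumor alleles. Within each mouse the cells were divided by surface CD26 (encoded by Dpp4) and by GFP. The libraries of each mouse were added up within a CD26 class, for 13 CD26− and 12 CD26+ sums. Some sums are 1 library of a single En1 class (En1+ is GFP-positive). In CD26− cells these are En1+ in mouse 10 and En1− in mice 21 and 95. In CD26+ cells they are En1+ in mice 12, 67 and 95. Between the sums of mouse 95, CD26 and En1 therefore cannot be told apart. Levels are in CPM, read counts scaled to a common library size after TMM normalization, and p-values adjusted over all genes are called FDR.

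TRAIL is a ligand on the surface of immune and other cells that can trigger apoptosis in cells that carry its death receptor. Mice have a single TRAIL death receptor with an intracellular death domain, DR5 (Tnfrsf10b), which recruits Fadd and caspase-8 and is induced by p53. The membrane decoys mDcTRAILR1 (Tnfrsf23) and mDcTRAILR2 (Tnfrsf22) bind TRAIL but lack a death domain, and osteoprotegerin (Tnfrsf11b) is a secreted decoy that binds RANKL (Tnfsf11) and, more weakly, TRAIL. Tnfrsf26 belongs to the same gene cluster as the membrane decoys and is not known as a TRAIL receptor.

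Of the genes in the table, 55226 were found in GENCODE M21, and 54906 of them have the same GRCm38 coordinates there. On this build Tnfrsf26 (chr7:143607659-143628722), Tnfrsf22 (chr7:143634806-143649661) and Tnfrsf23 (chr7:143665809-143685872) lie side by side on the minus strand. Tnfrsf10b lies at chr14:69767472-69784411 on the plus strand, Tnfrsf11b at chr15:54250619-54278484 on the minus strand and Tnfsf10 at chr3:27317028-27342427 on the plus strand. The antisense gene E230032D23Rik overlaps the cluster and had at most 5 counts in any library. The longest annotated coding sequences of Tnfrsf22 (594 bases without the stop codon) and Tnfrsf23 (528 bases) are 90.7% identical over 528 aligned bases. Their longest identical stretch is shown because a read from it fits both genes. It covers coding bases 421 to 522 of Tnfrsf22 and 391 to 492 of Tnfrsf23, spans 3 exons in each gene, and has its middle part at chr7:143639902-143639975 in Tnfrsf22 and chr7:143669982-143670055 in Tnfrsf23.
Tnfrsf22 and Tnfrsf23, identical: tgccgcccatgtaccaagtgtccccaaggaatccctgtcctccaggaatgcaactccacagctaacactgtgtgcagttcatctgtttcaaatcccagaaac
The stretch of the same length in which the coding sequences differ most is shown next, since reads from it tell the genes apart. It has 18 differing bases, given in capitals, and lies mainly in the exons at chr7:143644784-143644871 (Tnfrsf22) and chr7:143681463-143681550 (Tnfrsf23).
Tnfrsf22: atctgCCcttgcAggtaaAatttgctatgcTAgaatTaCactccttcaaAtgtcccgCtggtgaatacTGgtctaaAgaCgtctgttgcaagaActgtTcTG
Tnfrsf23: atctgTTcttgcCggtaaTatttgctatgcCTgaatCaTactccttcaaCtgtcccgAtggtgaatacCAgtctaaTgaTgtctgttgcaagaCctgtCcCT
Of the windows of 54 bases (the length of the sequenced reads) in the annotated transcripts, 679 are identical between these genes. Together with windows shared with other genes, 26.1% of the windows of Tnfrsf22 and 17.0% of those of Tnfrsf23 are not unique. How the authors' counting treated such reads is not given in the sources used here, so the counts of this pair are uncertain. If shared reads were divided or given to either gene, the count of Tnfrsf22 could hold reads of Tnfrsf23, which stood at higher levels. Tnfrsf26 and Tnfrsf11b share no such window with any gene, 5.11% of the windows of Tnfrsf10b are shared, and so are 0.214% of those of Tnfsf10.

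The promoters of Tnfrsf23, the membrane decoy with the largest difference between CAFs and NFs, and of Tnfsf10 are shown as the 250 bases before the RefSeq start (GRCm38.p6), 5′ to 3′ on the strand of the gene. RefSeq promoters of the other 4 genes (Tnfrsf10b, Tnfrsf22, Tnfrsf26 and Tnfrsf11b) were not matched. Capitals mark matches to TATAAA or GGGCGG on either strand.
Tnfrsf23, chr7:143685876-143686125, minus strand: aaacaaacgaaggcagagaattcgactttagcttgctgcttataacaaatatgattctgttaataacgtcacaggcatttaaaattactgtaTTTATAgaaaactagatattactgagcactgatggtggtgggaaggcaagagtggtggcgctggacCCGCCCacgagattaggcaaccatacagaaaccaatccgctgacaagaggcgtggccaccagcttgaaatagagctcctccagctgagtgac
Tnfsf10, chr3:27316827-27317076, plus strand: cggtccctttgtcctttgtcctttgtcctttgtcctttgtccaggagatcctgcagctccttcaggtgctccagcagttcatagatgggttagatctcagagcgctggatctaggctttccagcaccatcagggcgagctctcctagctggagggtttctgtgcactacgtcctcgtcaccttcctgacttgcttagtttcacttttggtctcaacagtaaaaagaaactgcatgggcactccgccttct
The Tnfrsf23 promoter has 1 match to TATAAA, which 12.4% of 32851 promoters of this length hold, and 1 match to GGGCGG, which 32.7% hold. Neither promoter has a match to TGANTCA (the AP-1 site, in 6.75% of promoters), CACGTG (the E-box bound by Myc, in 6.02%) or the core of the interferon-stimulated response element (2 copies of GAAA with 2 bases between them, in 2.98%). The 5 motifs were searched on both strands, and none overlapped another in these windows.

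Depth was 5790599 to 15240328 counts per library, and the shallowest library is the only CD26+ library of WB1P mouse 12. Dpp4 matched the sort, with mean levels of 4.87 to 7.78 CPM in the 3 CD26− groups and 410 to 527 CPM in the 3 CD26+ groups. The 7 fibroblast markers (Pdgfra, Pdgfrb, Col1a1, Col1a2, Dcn, Lum and Vim) were detected in every sum and together held 21498 to 59373 CPM. The 7 epithelial markers together held 0.455 to 173 CPM, the 7 immune markers 12.2 to 250 CPM, the 6 endothelial markers 19.4 to 520 CPM and the 5 Schwann cell markers 10.8 to 63.9 CPM. Genes at 0 in some sums included the epithelial genes Krt5 (8 sums), Krt14 (1) and Epcam (1), the immune gene Nkg7 (7), the endothelial genes Cdh5, Vwf and Emcn (1 each) and the Schwann cell gene Sox10 (2). The 6 pericyte markers (Rgs5, Notch3, Cspg4, Mcam, Kcnj8 and Abcc9) were not at 0 in any sum and together held 1822 to 9067 CPM in CD26− CAFs, against 203 to 370 CPM in the CD26− class of NFs. CD26+ cells held 155 to 393 CPM of them in tumors and 167 to 189 CPM in controls. Of these 6 genes, 6 rose in CD26− CAFs against CD26− NFs (20.4% of all genes rose) and 6 fell in CD26+ against CD26− CAFs (19.9% fell; edgeR, FDR under 0.05). In the first comparison 2 fibroblast markers rose and 3 fell, with 1 and 4 endothelial, 1 and 1 immune, and 0 and 1 Schwann cell markers. In the second, 3 fibroblast markers rose and 1 fell, with 2 and 3 endothelial, 1 and 2 immune, and 1 and 2 Schwann cell markers. Epithelial markers had 0 calls in both. In sums of sorted cells, fewer cells of a type and less RNA per cell cannot be told apart.

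The decoy Tnfrsf23 was the membrane receptor with the largest difference between CAFs and NFs. In CD26− NFs it stood at 6.03, 7.16 and 8.12 CPM. In CD26− CAFs it stood at 64.5, 65.3, 79.4, 93.6 and 97.3 CPM in WB1P mice and at 33.1, 44.0, 45.1, 45.6 and 60.6 CPM in WB1P-Myc mice. All 10 CAF values lay above all NF values, and all WB1P values lay above all WB1P-Myc values. On library totals in place of TMM the tumor models overlapped, with 63.2 CPM in WB1P mouse 12 and 65.3 CPM in WB1P-Myc mouse 69. In CD26+ NFs Tnfrsf23 stood at 7.02, 7.28 and 10.0 CPM. In CD26+ CAFs it stood at 70.7, 77.0, 82.9 and 95.3 CPM in WB1P mice and at 51.1, 56.2, 57.6, 76.3 and 99.8 CPM in WB1P-Myc mice. The CD26+ CAF values again lay above all NF values, while the ranges of the tumor models overlapped. The log2 fold change of CAFs against NFs was 3.09 (SE 0.24, 8.52-fold) for CD26− and 3.20 (SE 0.24, 9.20-fold) for CD26+ fibroblasts. WB1P-Myc against WB1P gave −0.81 (SE 0.18) for CD26− and −0.26 (SE 0.19) for CD26+ CAFs. Between CD26+ and CD26− CAFs the log2 difference was 0.30 (SE 0.13), with the higher level in CD26+ cells in 6 of 9 mice, and between the classes of NFs it was 0.19 (SE 0.24). In CD26− CAFs the pericyte markers summed to a median of 4185 CPM in WB1P-Myc and 2444 CPM in WB1P mice, with 0 of 6 called. Their part in the CD26− differences of Tnfrsf23 and Tnfrsf10b between the tumor models was not tested.

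**Figure D1:**
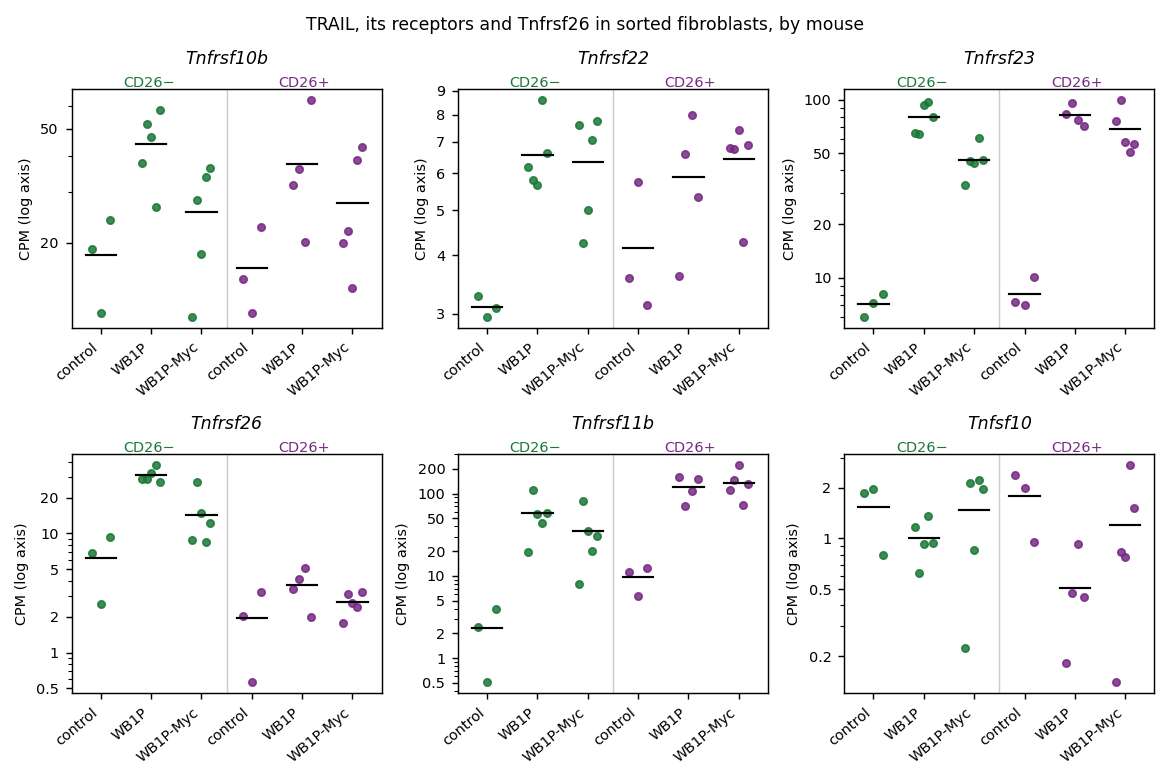
Levels of the 6 genes in CPM on log axes. Each point is the sum of 1 mouse and CD26 class (CD26− in green, CD26+ in purple), in 3 control, 5 WB1P (4 for CD26+) and 5 WB1P-Myc mice, and the lines are means. Tnfrsf23 lies between 6.03 and 10.0 CPM in NFs and between 33.1 and 99.8 CPM in CAFs, while Tnfsf10 stays under 3 CPM throughout.

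The decoy Tnfrsf22, which lies beside Tnfrsf23, stood at lower levels and differed less. It ranged from 2.96 to 3.28 CPM in CD26− NFs and from 4.26 to 8.61 CPM in CD26− CAFs, which did not overlap. In CD26+ cells the ranges of 3.13 to 5.74 CPM in NFs and 3.62 to 8.00 CPM in CAFs overlapped. The log2 fold change of CAFs against NFs was 1.05 (SE 0.25) in CD26− and 0.58 (SE 0.24) in CD26+ fibroblasts. Reads from stretches shared with Tnfrsf23 could enter these levels, and their part in the difference of Tnfrsf22 was not tested. Between CD26 classes of CAFs it was −0.06 (SE 0.16), between CD26 classes of NFs 0.42 (SE 0.29), and between tumor models −0.06 (SE 0.22) in CD26− and 0.10 (SE 0.24) in CD26+ CAFs.

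The death receptor Tnfrsf10b differed less between CAFs and NFs than Tnfrsf23, and its values overlapped in every comparison. It stood at 11.4, 19.0 and 23.9 CPM in CD26− NFs and at 11.3, 15.0 and 22.6 CPM in CD26+ NFs. CD26− CAFs had 26.7, 38.0, 46.6, 52.0 and 58.2 CPM in WB1P mice and 11.0, 18.2, 28.2, 33.8 and 36.3 CPM in WB1P-Myc mice. CD26+ CAFs had 20.1, 31.9, 36.0 and 63.0 CPM in WB1P mice and 13.9, 19.9, 22.0, 38.7 and 43.1 CPM in WB1P-Myc mice. All CD26− WB1P values and 3 of the 4 CD26+ WB1P values lay above the NFs of the same class, while mice 21 and 67 of the WB1P-Myc model did not in either class. The log2 fold change of CAFs against NFs was 0.89 (SE 0.39) for CD26− and 0.98 (SE 0.40) for CD26+ fibroblasts. Between CD26+ and CD26− CAFs it was −0.06 (SE 0.26), with the higher level in CD26+ cells in 4 of 9 mice, and between the classes of NFs it was −0.15 (SE 0.46). WB1P-Myc against WB1P gave −0.80 (SE 0.36) in CD26− and −0.46 (SE 0.37) in CD26+ CAFs.

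Levels of the receptors were set against each other per kilobase of exon, since longer transcripts give more reads. The length joins all annotated exons of a gene and not those of the expressed transcripts, so where a ratio of 1 falls depends on it. The ratio of Tnfrsf23 to Tnfrsf10b, decoy over death receptor, was 0.59 ± 0.24 (SD, n = 3) in CD26− NFs and 0.71 ± 0.13 (SD, n = 3) in CD26+ NFs. In CD26− CAFs it was 2.75 ± 1.34 (SD, n = 5) in WB1P and 2.77 ± 0.96 (SD, n = 5) in WB1P-Myc mice. In CD26+ CAFs it was 3.51 ± 1.52 (SD, n = 4) in WB1P and 4.17 ± 2.19 (SD, n = 5) in WB1P-Myc mice. The ratio was below 1 in all 6 sums of NFs, where the highest was 0.87, and above 1 in all 19 sums of CAFs, where the lowest was 1.55. With Tnfrsf22 added to the decoys, the group means were 0.83 and 1.09 in CD26− and CD26+ NFs and 2.96 to 4.55 in CAFs. The ratio of osteoprotegerin to Tnfrsf10b was 0.22 ± 0.12 (SD, n = 3) in CD26− NFs and 1.15 ± 0.25 (SD, n = 3) in CD26+ NFs. Its means in CAFs were 2.51 (WB1P) and 2.67 (WB1P-Myc) for CD26− cells and 7.08 and 12.8 for CD26+ cells.

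**Figure D2:**
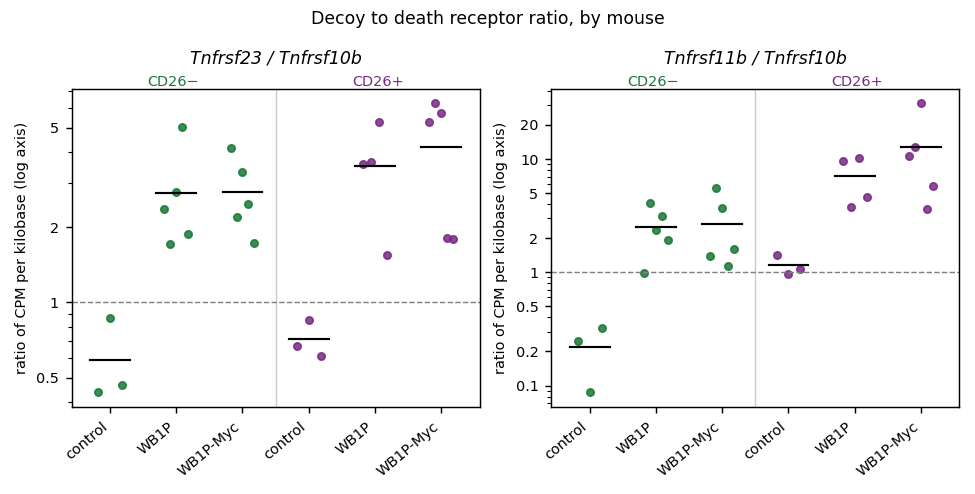
Ratios of levels per kilobase, on log axes. Each point is 1 mouse and CD26 class in control, WB1P and WB1P-Myc mice, lines are means, and the dashed line marks a ratio of 1. In the left panel all NFs lie under 1 and all CAFs above it, from 1.55 to 6.25. In the right panel CD26+ CAFs reach the highest value, 31.0.

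Osteoprotegerin (Tnfrsf11b), the secreted decoy, differed both between CAFs and NFs and between CD26 classes. CD26− NFs had 0.511, 2.42 and 3.95 CPM (14 to 109 reads), and CD26+ NFs had 5.63, 11.1 and 12.5 CPM. CD26− CAFs had 19.4, 43.5, 56.6, 58.3 and 110 CPM in WB1P mice and 7.99, 19.96, 30.1, 35.0 and 80.2 CPM in WB1P-Myc mice. CD26+ CAFs had 69.9, 107, 151 and 158 CPM in WB1P mice and 72.1, 109, 129, 146 and 222 CPM in WB1P-Myc mice. In both CD26 classes every CAF value lay above every NF value, and CD26+ NFs lay above CD26− NFs, while the CD26 classes of CAFs overlapped. The log2 fold change of CAFs against NFs was 4.28 (SE 0.71, 19.5-fold) for CD26− and 3.72 (SE 0.68, 13.2-fold) for CD26+ fibroblasts. Without control mouse 82/83 the value for CD26− fibroblasts was 4.93. The difference of CD26+ minus CD26− was 1.52 (SE 0.37, 2.86-fold) in CAFs and 2.08 (SE 0.71, 4.23-fold) in NFs. Within mice, CD26+ cells had the higher level in 9 of 9 CAF and 3 of 3 control mice. WB1P-Myc against WB1P gave −0.73 (SE 0.50) in CD26− and 0.16 (SE 0.53) in CD26+ CAFs. The 3 lowest values among CD26− CAFs, 7.99, 19.4 and 19.96 CPM in mice 21, 10 and 69, stood beside pericyte marker sums of 9067, 5285 and 2353 CPM, and the value of 80.2 CPM in mouse 23 beside 4259 CPM. The part of these cells in the level of Tnfrsf11b was not tested.

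RANKL (Tnfsf11), the other ligand of osteoprotegerin, was measured in the same libraries. It rose from 0.765 ± 0.385 (SD, n = 3) to 19.1 ± 6.82 (SD, n = 10) CPM in CD26− CAFs against NFs (log2 4.62, SE 0.53, edgeR FDR 9.24e-07). In CD26+ cells it rose from 0.363 ± 0.302 (SD, n = 3) to 6.90 ± 2.40 (SD, n = 9) CPM (log2 4.23, SE 0.55, edgeR FDR 7.33e-06). Between the classes of CAFs it fell from CD26− to CD26+ (log2 −1.46, SE 0.28, edgeR FDR 0.000232), where Tnfrsf11b was higher. RANK (Tnfrsf11a), the signaling receptor of RANKL, stood at group means of 0.19 to 1.09 CPM. It fell in CD26+ against CD26− CAFs (log2 −1.78, SE 0.45, edgeR FDR 0.00329) and did not pass the test against NFs, with log2 values of 0.21 (SE 0.57) for CD26− and −1.15 (SE 0.60) for CD26+ cells.

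Tnfrsf26 was the member that separated the CD26 classes of CAFs. CD26− NFs had 2.56, 6.82 and 9.28 CPM, and CD26+ NFs had 0.567, 2.03 and 3.21 CPM. CD26− CAFs had 26.9, 28.7, 28.7, 31.9 and 37.4 CPM in WB1P mice and 8.40, 8.88, 12.2, 14.8 and 27.1 CPM in WB1P-Myc mice. CD26+ CAFs had 1.99, 3.44, 4.12 and 5.17 CPM in WB1P mice and 1.78, 2.41, 2.62, 3.13 and 3.25 CPM in WB1P-Myc mice. Every CD26− CAF value lay above every CD26+ CAF value, and within mice the CD26− level was the higher one in 9 of 9 CAF and 3 of 3 control mice. The log2 difference of CD26+ minus CD26− was −2.75 (SE 0.30) in CAFs, which is 6.71-fold lower in CD26+ cells, and −1.68 (SE 0.50) in NFs. CAFs against NFs gave 1.75 (SE 0.43) for CD26− and 0.69 (SE 0.43) for CD26+ fibroblasts. WB1P-Myc against WB1P gave −1.10 (SE 0.37) for CD26− and −0.50 (SE 0.42) for CD26+ CAFs. Pericyte markers were also highest in CD26− CAFs, and their part in the level of Tnfrsf26 was not tested. Control mouse 49/52 had the lowest Tnfrsf26, Tnfrsf11b and Tnfrsf10b levels of the NFs in both CD26 classes.

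**Figure D3:**
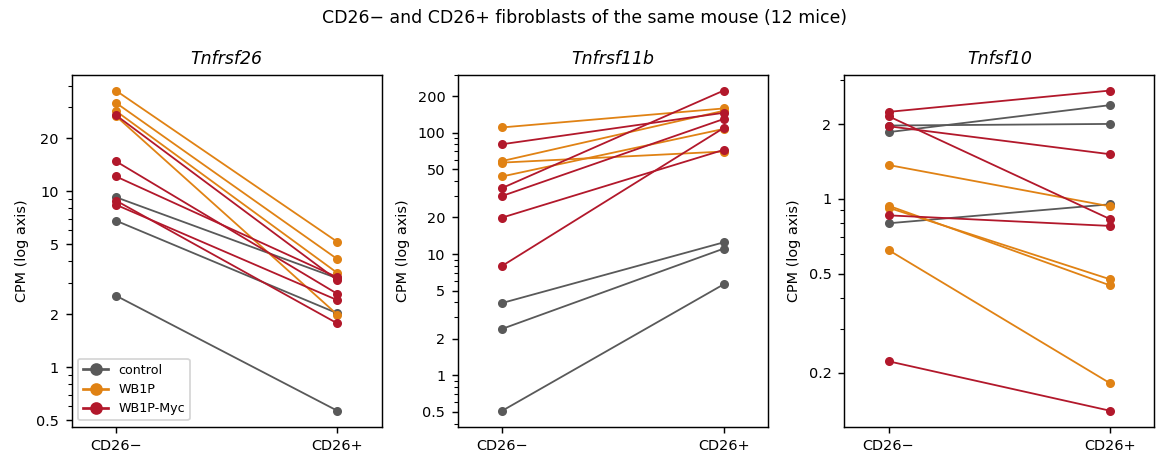
Levels of Tnfrsf26, Tnfrsf11b and Tnfsf10 in CD26− and CD26+ fibroblasts of the same mouse, in CPM on log axes. Lines join the classes of 1 mouse (3 control in grey, 4 WB1P in orange, 5 WB1P-Myc in red). Tnfrsf26 is lower and Tnfrsf11b higher in CD26+ cells of all 12 mice, while Tnfsf10 is higher in CD26+ cells of 4 mice.

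The ligand Tnfsf10 was hardly detected, with 1 to 74 reads in a sum. CD26− NFs had 0.797, 1.85 and 1.97 CPM, and CD26+ NFs had 0.951, 2.00 and 2.38 CPM. CD26− CAFs had 0.622, 0.921, 0.938, 1.16 and 1.37 CPM in WB1P mice and 0.222, 0.858, 1.96, 2.15 and 2.24 CPM in WB1P-Myc mice. CD26+ CAFs had 0.181, 0.448, 0.474 and 0.933 CPM in WB1P mice and 0.140, 0.778, 0.828, 1.51 and 2.73 CPM in WB1P-Myc mice. Within a CD26 class all groups overlapped, except that CD26+ cells of WB1P mice lay below the CD26+ NFs. The log2 fold change of CAFs against NFs was −0.33 (SE 0.56) for CD26− and −1.13 (SE 0.56) for CD26+ fibroblasts, and CD26+ against CD26− gave −0.58 (SE 0.42) in CAFs and 0.21 (SE 0.69) in NFs. WB1P-Myc against WB1P gave 0.58 (SE 0.56) in CD26− and 1.11 (SE 0.63) in CD26+ CAFs. The latter was 0.53 without WB1P-Myc mouse 69 and 0.50 without the 8x8 mice. Mouse 12 had 1 read in CD26+ and 16 reads in CD26− cells, a CPM ratio of 0.291 whose 95% exact interval from the counts is 0.00694 to 1.87. Mouse 21 had 3 reads in each class, a ratio of 0.632 (0.0847 to 4.72). These intervals cover counting error only.

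Among the 6 members, 4 passed FDR under 0.05 in CD26− CAFs against NFs, where 41.3% of 16601 genes passed, and 2 in CD26+ CAFs against NFs, where 41.2% passed. Between CD26+ and CD26− CAFs 2 members passed, beside 39.0% of genes, and between the CD26 classes of NFs none of the members passed, beside 4.17% of genes (2.67% higher and 1.49% lower in CD26+ cells). Between WB1P-Myc and WB1P 1 member passed in CD26− CAFs, beside 0.512%, and none in CD26+ CAFs, beside 0.0%. These counts use the values that chose the members and show nothing further about them. Ranges that did not overlap were found for 3 and 2 members between CAFs and NFs (CD26− and CD26+), beside 25.1% and 25.2% of genes. Between the CD26 classes it was 1 member in CAFs (Tnfrsf26), beside 7.79% of genes (3.88% higher and 3.91% lower in CD26+ cells), and 1 in NFs (Tnfrsf11b), beside 19.9% (9.78% higher and 10.1% lower). Between the tumor models it was 1 member in CD26− CAFs (Tnfrsf23, which overlapped on library totals), beside 3.72% (2.31% lower in WB1P-Myc), and 0 in CD26+ CAFs, beside 0.651%.

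**Figure D4:**
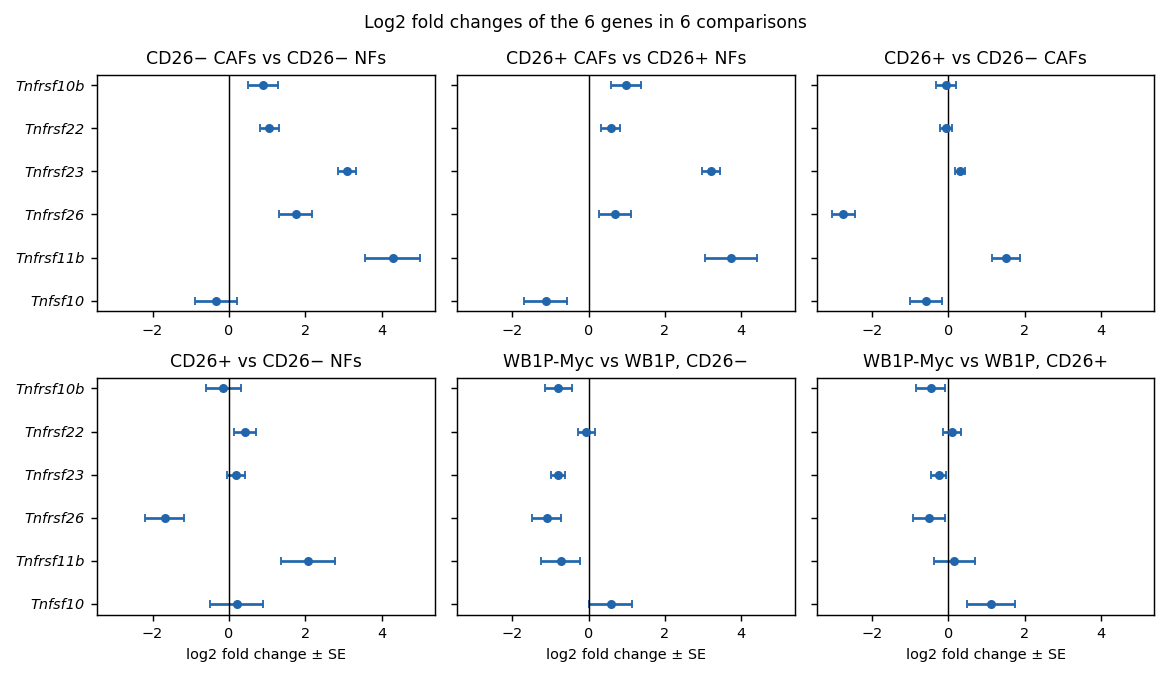
Log2 fold changes of the 6 genes in 6 comparisons, from 1 model of all sums, with bars of 1 SE. Each row is a gene and the line marks no difference. Tnfrsf23 lies at 3.09 and 3.20 and Tnfrsf11b at 4.28 and 3.72 in CAFs against NFs, and Tnfrsf26 at −2.75 in CD26+ against CD26− CAFs.

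Genes that act after the receptors were followed as a list of 26, all of which passed the filter. In CD26− CAFs against NFs 10 rose and 4 fell, with a median log2 fold change of 0.36 beside 0.01 over all genes. The 6 pericyte markers rose in the same comparison, and their part in these counts was not tested. Among those that rose were Pmaip1 (Noxa, which opposes Mcl1), with log2 4.61 (SE 0.61, edgeR FDR 4.85e-06), Casp8, the initiator caspase of the receptor complex, with 1.88 (SE 0.17, edgeR FDR 3.74e-08), the mitochondrial pore protein Bak1, with 1.48 (SE 0.14), and Bid, the substrate by which caspase-8 reaches the mitochondria, with 1.42 (SE 0.29). Ripk1, the kinase that joins the receptor complex, fell by 1.17 (SE 0.20) on the log2 scale, the anti-apoptotic Bcl2 by 0.91 (SE 0.21), Mcl1 by 0.67 (SE 0.16) and Diablo, which blocks inhibitors of apoptosis, by 0.55 (SE 0.16). The adaptor Fadd went from 3.31 ± 0.89 (SD, n = 3) CPM in NFs to group means of 5.03 and 5.66 CPM in WB1P and WB1P-Myc CAFs and did not pass the test (log2 0.69, SE 0.30, edgeR FDR 0.0677). Cflar (cFLIP), which blocks caspase-8 at the receptor, had a log2 difference of 0.12 (SE 0.34).

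In CD26+ CAFs against NFs 6 genes of the list rose and 5 fell, with a median of 0.17 beside 0.00 over all genes. Pmaip1 rose by 2.34 (SE 0.54, edgeR FDR 0.00194) on the log2 scale, Bak1 by 1.30 (SE 0.14), Casp8 by 1.07 (SE 0.16) and the executioner caspase Casp6 by 0.93 (SE 0.20). Bcl2 fell by 0.92 (SE 0.22), Ripk1 by 0.92 (SE 0.21), the caspase inhibitor Xiap by 0.52 (SE 0.18), Birc2 (cIAP1) by 0.51 (SE 0.19) and Diablo by 0.45 (SE 0.16). Fadd and Cflar did not pass the test, with log2 values of 0.32 (SE 0.29) and 0.06 (SE 0.34). The share of the list that passed, 14 and 11 of 26, stands beside 41.3% and 41.2% of all genes.

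Between CD26+ and CD26− CAFs 1 gene of the list rose and 9 fell, beside 39.0% of genes called, with a median of −0.14 beside 0.01 over all genes. Pmaip1 fell by 2.66 (SE 0.34, edgeR FDR 1.69e-06) on the log2 scale, from 87.4 ± 49.7 (SD, n = 10) to 13.0 ± 4.92 (SD, n = 9) CPM. Bbc3 (Puma), like Noxa a p53-induced activator of apoptosis, fell by 1.27 (SE 0.19), Bcl2 by 1.06 (SE 0.16) and Casp8 by 0.49 (SE 0.11), while the mitochondrial protease Htra2 rose by 0.45 (SE 0.09). The 9 that fell thus include Bcl2, which opposes cell death. The 6 pericyte markers fell in the same comparison, and their part in these counts was not tested. Between the classes of NFs Bcl2 fell by 1.05 (SE 0.28, edgeR FDR 0.0291), as the only call among the 26 beside 4.17% of genes, and the call was lost without control mouse 49/52, without control mouse 44/46 and with only the NFs in the fit. Between WB1P-Myc and WB1P edgeR called 0 of 26 in CD26− and in CD26+ CAFs. At an unadjusted p under 0.05 it counted 6 and 0, and DESeq2 called 1 and 0.

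**Figure D5:**
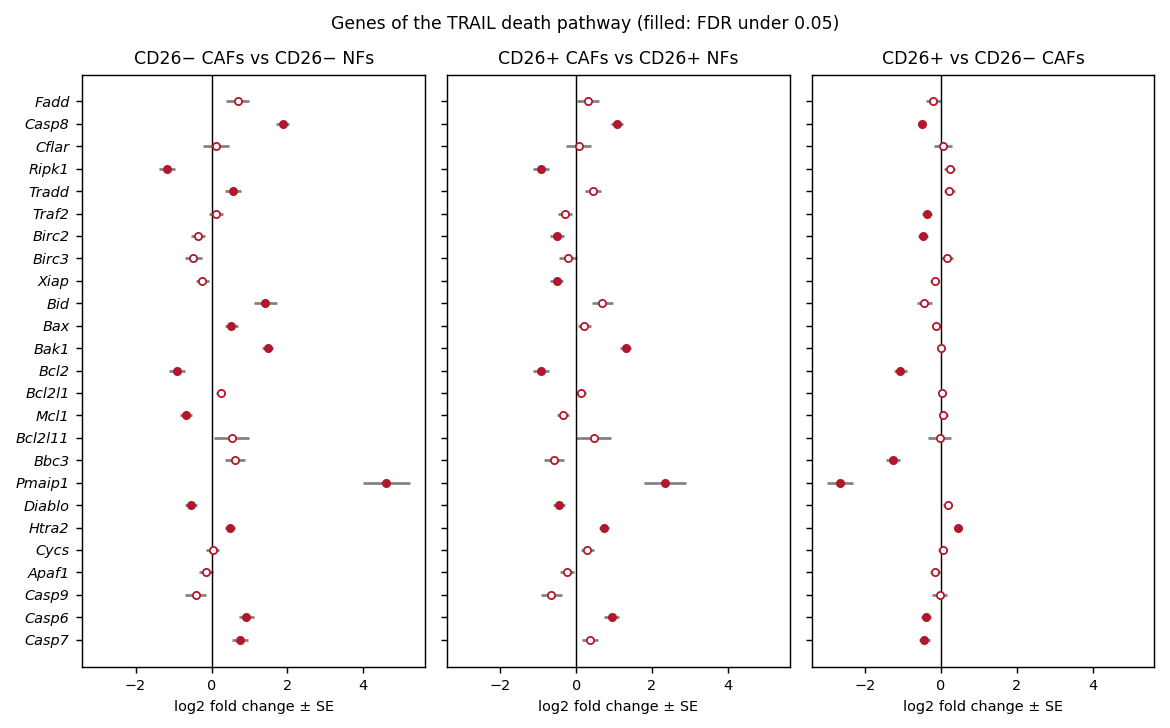
Log2 fold changes with 1 SE of 25 of the 26 genes of the TRAIL death pathway in 3 comparisons. Filled points passed FDR under 0.05 (edgeR), 13, 10 and 9 of the genes drawn in turn. Pmaip1 lies at 4.61 in CD26− CAFs against NFs and at −2.66 in CD26+ against CD26− CAFs.

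TRAIL is itself induced by interferon, and 15 interferon-stimulated genes were counted beside it. In CD26− CAFs against NFs 11 rose and 0 fell (20.4% of all genes rose, and so did the 6 pericyte markers), with a median log2 fold change of 2.18, and in CD26+ CAFs 10 rose and 0 fell (20.1% rose), with a median of 2.38. The largest rises in CD26− CAFs were those of Ifi44 (log2 5.94, SE 1.41), Mx1 (4.43, SE 1.38), Rsad2 (3.98, SE 1.27), Usp18 (3.23, SE 0.94) and Irf7 (2.84, SE 0.94). In CD26+ CAFs they were Ifi44 (5.42, SE 1.40), Rsad2 (3.59, SE 1.24), Irf7 (2.80, SE 0.95), Isg15 (2.77, SE 0.82) and Rtp4 (2.53, SE 0.83). Levels spread widely among WB1P-Myc mice. In their CD26− CAFs Irf7 ranged from 14.6 to 348 CPM and Usp18 from 3.04 to 61.1 CPM. Both ranges reached into that of CD26− NFs, whose highest values were 28.5 and 4.71 CPM. Ifi44, Mx1 and Rsad2 stayed above CD26− NFs, Ifi44 with 2.37 to 65.5 CPM against at most 0.584 CPM. Tnfsf10 was not higher in CAFs in either class. Without control mouse 82/83 these counts were 4 and 2, and without control mouse 44/46 they were 3 and 1. Between CD26 classes edgeR called 0 of 15 in CAFs (0 at an unadjusted p under 0.05, 0 by DESeq2) and 0 in NFs (1 and 0). With mouse as a replicate block 6 fell in CD26+ against CD26− CAFs, and 2 rose in CD26+ against CD26− NFs, where that fit called 46.6% and 13.5% of all genes. Between the tumor models edgeR called 0 in CD26− CAFs (0 unadjusted, 0 by DESeq2) and 0 in CD26+ CAFs (3 and 0).

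Tnfrsf10b is a target of p53, and 12 other p53 targets were counted. Pmaip1 and Bbc3, named above as p53-induced, are in the list of the TRAIL death pathway and not among these 12. In CD26− CAFs against NFs Pmaip1 rose by 4.61 (SE 0.61) on the log2 scale, and Bbc3 did not pass the test (0.62, SE 0.27). Of the 12 targets, 3 rose and 1 fell in this comparison, beside 41.3% of genes called and with the 6 pericyte markers higher as well. Zmat3 rose by 1.25 (SE 0.23) on the log2 scale, Phlda3 by 1.13 (SE 0.26) and the cyclin gene Ccng1 by 0.85 (SE 0.24), and Ei24 fell by 0.24 (SE 0.09). In CD26+ CAFs only Phlda3 rose (1.00, SE 0.27). The counts of calls became 2 in CD26− CAFs without control mouse 44/46, and 2 in CD26+ CAFs without control mouse 82/83 or 44/46. Between CD26+ and CD26− CAFs Trp53inp1 fell by 1.27 (SE 0.23), Eda2r by 0.91 (SE 0.23) and Sesn2 by 0.52 (SE 0.15), beside 39.0% of genes called. With mouse as a replicate block 5 of the 12 fell, beside 46.6%. The 6 pericyte markers fell in this comparison too, and their part was not tested. Between the classes of NFs edgeR called 0 of 12 (1 at an unadjusted p under 0.05, 0 by DESeq2). Between the tumor models it called 0 in CD26− CAFs (2 unadjusted, 0 by DESeq2) and 0 in CD26+ CAFs (1 and 0).

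The En1 lineage did not enter the choice of the genes, and the members could be tested on it in single libraries. In none of the 4 comparisons of En1+ against En1− cells (CD26− and CD26+, CAFs and NFs) did a member pass FDR under 0.05. This is a count of 0 of 6 each with edgeR (0 at an unadjusted p under 0.05) and with DESeq2, and with mouse as a replicate block also 0 (2, 1, 0 and 0 at an unadjusted p under 0.05 in CD26− CAFs, CD26+ CAFs, CD26− NFs and CD26+ NFs). Over all 15584 genes edgeR called 0, 3, 1 and 1, which is 0.0%, 0.0193%, 0.00642% and 0.00642%, and DESeq2 8, 3, 6 and 1. With mouse as a replicate block 120, 7, 373 and 223 genes were called, out of 14216, 13500, 13630 and 13483 tested in those fits. These are 0.844%, 0.0519%, 2.74% and 1.65%. In CD26− CAFs 641 genes had an unadjusted edgeR p under 0.05. Tnfrsf26 had the largest difference of the members in CD26− CAFs, with 28.7 CPM over 8 En1+ and 19.3 CPM over 9 En1− libraries. Its log2 difference was 0.42 (SE 0.31, edgeR FDR 1.00), and 0.40 (SE 0.09, edgeR FDR 0.0779) with mouse as a replicate block, with the higher level in En1+ cells in 6 of 7 mice. Tnfrsf23 was higher in the En1+ library in 16 of 19 pairs, which are not independent where both CD26 classes of a mouse gave a pair, and its log2 differences were 0.16 (SE 0.16) in CD26− and 0.06 (SE 0.17) in CD26+ CAFs. The other members ranged from 9 to 12 of 19 pairs. For Tnfrsf11b the log2 difference was 0.15 (SE 0.38) in CD26− and 0.25 (SE 0.41) in CD26+ CAFs.

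The genes most like each member were ranked by Pearson's r of log2 CPM over the 25 sums. Since the sums span NFs and CAFs, r can follow that split, and r over the 19 sums of CAFs is given beside it, without tests. The sums of CAFs still span both CD26 classes, so r over them can follow the difference between these classes. Most like Tnfrsf23 were P4ha3, a subunit of collagen prolyl hydroxylase (r 0.97, 0.78 in CAFs), and the glycolytic genes Pkm (0.97, 0.65) and Eno1 (0.97, 0.76). Most like Tnfrsf26 were the receptor-like gene Ptk7 (0.97, 0.96), Rhbdf2 (0.96, 0.96), whose product escorts the protease that sheds TNF, and the netrin receptor gene Unc5b (0.95, 0.94). For Tnfrsf11b they were Jpt2 (0.94, 0.76), Tfg (0.94, 0.87) and the cell cycle factor E2f1 (0.93, 0.81). For Tnfrsf10b they included Tmbim6 (0.83, 0.84) and Stx6 (0.83, 0.80), and for Tnfrsf22 Nell2 (0.83, 0.59), Six4 (0.80, 0.41) and Pstpip2 (0.80, 0.74). Tnfsf10 was most like Trim14 (0.83, 0.85), Tmem140 (0.80, 0.79) and Vill (0.80, 0.80). Ranking by Spearman's rho kept 2 of 3 genes for Tnfrsf10b and Tnfsf10, 1 of 3 for Tnfrsf22 and none for the others, and ranking within CAFs kept 1 of 3 for Tnfrsf22 and Tnfsf10 and none for the others.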

How the data were processed

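Libraries of stranded poly(A) mRNA were made from RNA with a RIN above 7, and the authors deposited counts of reads per gene without normalization. The submitters' processing notes name HISAT2 2.2.1 and GRCm38. The counter and the annotation are not given in the sources used here. The labels describe paired-end reads of 54 cycles, and 2 platforms are named without a batch per sample. Of 55487 lines, 1 names no gene and holds 0 counts. None of 63 pairs of libraries of one group agreed within counting noise (lowest chi-square per degree of freedom 14.8). In the main fits the p-values measure the spread, within groups, between the mice the labels name. Sums or libraries of the same mouse in different groups were treated there as independent. With mouse as a replicate block the p-values measure the spread of differences within mice.

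Counts were summed per mouse and CD26 class and fitted in R 4.3.3 with edgeR 4.0.16 (filterByExpr, TMM, glmQLFit, glmQLFTest) over 6 groups, with WB1P and WB1P-Myc weighted equally in means of CAFs. En1 comparisons used single libraries in 12 groups. p-values were adjusted over all genes tested (16601 for sums, 15584 for libraries). Alternatives were DESeq2 1.42.0 (size factors, Wald test), no low-count filter, fits of only the groups compared, mouse as a replicate block, leaving out the 8x8 mice or each of 13 mice, and the study's limits (FDR under 0.05 and absolute log2 fold change over 2). The models were tested on simulated counts. CD26 classes with the same animal label come from the same animal (in controls, from the same pair of animal numbers) and were treated as paired in the replicate block. Their deviations from the group means correlated with r of 0.237 to 0.668 (median 0.444, 12 mice).

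The members and lists were chosen with earlier results of these data known. Named are the members, Dpp4, Fadd, Casp8, Cflar, Tnfsf11 and Tnfrsf11a, in each comparison at most 5 called genes of a list in each direction by size, and the 3 genes most like each member by r of log2 CPM (prior count 2). Lists were counted without set tests. Coordinates, transcripts and exon lengths came from GENCODE M21, promoters from RefSeq (GRCm38.p6). Some genes that this rule selects are not reported here.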

Additional observations from a re-analysis of the deposited data

Results flagged for a closer look

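Among the levels of the members, 24 groups of 4 or 5 mice were examined for a value far from the others, and 1 was found, where chance gives about 1.2. In CD26+ CAFs of WB1P-Myc mice, Tnfrsf22 stood at 4.27 CPM in mouse 69, one of the mice labelled 8x8, and at 6.77 CPM or more in the other 4.

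The median difference of Tnfsf10 between CD26+ and CD26− cells had opposite signs in control and WB1P mice. CD26+ cells had the higher level in 3 of 3 control mice (median log2 difference 0.23) and the lower level in 4 of 4 WB1P mice (median −0.89). The difference between control and WB1P mice was not tested, and the lowest WB1P value rests on 1 read. Control mouse 49/52 had 53 reads in CD26+ and 54 in CD26− cells, a log2 difference of 0.02. On library totals in place of TMM its CD26+ level was the lower one, 2.10 against 2.13 CPM. In WB1P-Myc mice CD26+ cells had the higher level in 1 of 5.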

How the results depend on the processing

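Of 660 alternative log2 fold changes of the members, 659 moved by less than 1 SD. In 8 the sign changed, all for differences of at most 0.16 in size (Tnfrsf22 between CD26 classes of CAFs and between tumor models, Tnfrsf11b between tumor models in CD26+ CAFs). The value that moved by more than 1 SD was Tnfrsf22 between CD26 classes of NFs, 0.08 in place of 0.42 without control mouse 49/52. This SD is not the SE given with the fold changes, and some values moved by more than that SE. With each mouse left out, Tnfrsf26 in CD26+ CAFs against NFs ranged from 0.27 to 1.25 (main fit 0.69). Tnfrsf11b between tumor models in CD26− CAFs ranged from −1.30 to −0.36 (main fit −0.73). On library totals in place of TMM, 1 of 36 mean levels moved by more than 1 SD, Tnfrsf22 in CD26− NFs, from 3.11 to 3.34 CPM. Counts for the TRAIL death pathway list changed by over 1.5 times in 8 of 116 alternatives, and the cause was not tested. Under the study's limits on fold change, which are narrower by construction, 1 gene was called in CD26− CAFs against NFs, 1 in CD26+ CAFs against NFs and 1 between CD26 classes of CAFs, and 0 between CD26 classes of NFs. With only the NFs in the fit, 0 were called between the classes of NFs, and with DESeq2's Wald test 1 was called between tumor models in CD26− CAFs. With each mouse left out, the counts ranged from 11 to 15 and from 8 to 13 in CD26− and CD26+ CAFs against NFs, from 8 to 11 between CD26 classes of CAFs and from 0 to 1 of NFs (0 without control mouse 49/52 or 44/46), and stayed at 0 between tumor models. With mouse as a replicate block 11 were called between CD26 classes of CAFs, 1 of NFs, and 0 members by En1 lineage. Apart from the values given beside the other lists the block moved no list's count by over 1.5 times. Calls over all genes tested went from 692 of 16601 (4.17%) to 2004 of 14844 (13.5%) between CD26 classes of NFs. By En1 lineage they went to 120, 7, 373 and 223. Tnfsf10 is limited by depth, with 1 to 74 reads in a sum. The other lists moved in 27 of 348 alternatives.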

Other observations

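Other death receptors and their ligands were counted as a list of 14, of which 11 passed the filter (Edar, Fasl and Lta did not). In CD26− CAFs against NFs 2 rose and 2 fell, beside 41.3% of genes called and with the 6 pericyte markers higher as well. Besides Tnfsf11, the death receptor DR6 (Tnfrsf21) rose from 119 ± 56.9 (SD, n = 3) to 248 ± 83.3 (SD, n = 10) CPM (log2 1.05, SE 0.33), while the ligand TWEAK (Tnfsf12) fell by 0.83 (SE 0.17) and DR3 (Tnfrsf25) by 0.97 (SE 0.31) on the log2 scale. In CD26+ CAFs against NFs Tnfsf11 and the TNF receptor gene Tnfrsf1a rose (0.43, SE 0.11, for Tnfrsf1a) and Tnfrsf25 fell by 1.18 (SE 0.33). Between CD26+ and CD26− CAFs 2 rose and 5 fell, beside 39.0% of genes. Tnfrsf21 fell by 2.73 (SE 0.24), to 37.1 ± 11.6 (SD, n = 9) CPM, Tnf by 2.06 (SE 0.41), Tnfrsf11a by 1.78 (SE 0.45), Tnfsf11 by 1.46 (SE 0.28) and Tnfrsf25 by 0.83 (SE 0.25), and the TWEAK receptor gene Tnfrsf12a and Tnfsf12 rose by 0.65 (SE 0.21) and 0.37 (SE 0.12). The 6 pericyte markers fell in this comparison too, and their part was not tested.

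Between the CD26 classes of NFs only Tnfrsf21 fell (log2 −1.51, SE 0.39, edgeR FDR 0.0282), beside 4.17% of genes called. The call was lost without the 8x8 mice, with only the NFs in the fit and without any single control mouse, while DESeq2 called 2 (6% of all genes) and mouse as a replicate block 4 (13.5%). Between the tumor models edgeR called 0 of 11 in either class of CAFs (0 at an unadjusted p under 0.05 and 0 by DESeq2 in both).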
